A study of Mus musculus with 4 samples.

Results

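The 35 genes described here encode the contractile and adhesion cytoskeleton of smooth muscle, and they were taken from a list of gene names that was drawn up with earlier results of these data known. All single-gene probe sets whose annotated symbol, or an older synonym of it, matched a listed gene were taken, which gave 72 of the 34945 probe sets with 1 gene symbol. All 35 genes had at least 1 probe set above the filter on low values, among 11703 genes compared in all. RNA from mouse aorta was hybridised to 4 Affymetrix arrays, 1 per group. The groups were C57BL/6 apoE-/- mice, the controls (B6 below), on chow or Western diet, and Ath29 congenic mice on chow or Western diet. A congenic strain carries a donor chromosome segment on another strain's background. The label names atherosclerosis for B6 and resistance to it for Ath29. Knockout of apoE is stated for the controls, and for Ath29 mice the labels give no apoE genotype. All mice were weaned onto chow at 3 weeks of age, and at 4 weeks they stayed on chow or changed to the Western diet for 2 weeks. Whether the RNA came from a single animal or from pooled animals is not stated. One protocol text names liver where the source label names aorta. Of 10 liver genes 5 lay below the filter, and Alb, the albumin gene, read 33.7 to 64.0. The exception was Cyp2e1, a cytochrome P450 that fat also expresses, at 2541 to 4852. The smooth muscle markers Acta2, Myh11 and Tagln were bright on all 4 arrays. A group is a single array, so replicate spread is unknown, no test was possible, and each difference describes these arrays only. Levels are linear intensities after the arrays were put on a common median, read from the brightest probe set of a gene. The filter on low values is an intensity of 27.5. Differences are in log2 units, and because probe sets differ in response, a brighter reading of one gene than of another does not mean more RNA. Unless said otherwise, levels come in the order B6 chow, B6 Western, Ath29 chow, Ath29 Western, and a pair of strain differences is Ath29 minus B6, first on chow and then on Western diet.

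Smooth muscle contracts when calcium and calmodulin activate myosin light chain kinase, which phosphorylates the regulatory light chain of myosin. Myosin phosphatase reverses this. Thin filaments of smooth muscle actin are anchored at dense bodies in the cytoplasm and at adhesion plaques in the membrane, and desmin-type filaments link these sites. Many genes of the apparatus are driven by serum response factor (SRF) with its coactivator myocardin through a DNA element called the CArG box. In vessel walls some of these genes mark the contractile state of medial smooth muscle cells.

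To show the element behind this shared regulation, the promoter windows of RefSeq (GRCm38.p6, from 250 bases before to 50 after each start) were searched for the CArG box, which is CC, 6 bases of A or T, and GG. The form reads alike on both strands. Windows were at hand for 30 of the 35 genes, and 6 of these held an exact box, against 1.81% of the 27025 genes with a window. With 1 of the 6 core bases as C or G, 4 of the 30 genes held a box, not far above the 9.69% of all genes. The stretches below lie upstream of the start, are written along the gene's strand, and have every box of either form in capitals. They are shown because their genes differ in what the arrays recorded, from Myl9, which had one of the largest strain differences on chow, to Cnn2 and Filip1l, with small ones. A match describes these letters only.
Myl9, chr2:156775278-156775399, plus strand: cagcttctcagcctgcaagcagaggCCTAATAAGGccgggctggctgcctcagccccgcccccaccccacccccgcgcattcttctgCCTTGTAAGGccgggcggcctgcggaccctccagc
Myl6, chr10:128493025-128493084, minus strand: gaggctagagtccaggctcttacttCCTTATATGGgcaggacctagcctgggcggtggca
Cnn2, chr10:79988519-79988578, plus strand: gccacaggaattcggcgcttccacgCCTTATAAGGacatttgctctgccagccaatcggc
Filip1l, chr16:57549155-57549214, plus strand: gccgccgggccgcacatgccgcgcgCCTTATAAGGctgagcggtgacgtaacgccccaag
Vcl, chr14:20929148-20929205, plus strand: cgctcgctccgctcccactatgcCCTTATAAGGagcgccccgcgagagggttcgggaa
Srf, chr17:46556190-46556269, minus strand: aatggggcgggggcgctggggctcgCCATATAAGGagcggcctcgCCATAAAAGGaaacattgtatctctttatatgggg
Acta2, chr19:34255374-34255482, minus strand: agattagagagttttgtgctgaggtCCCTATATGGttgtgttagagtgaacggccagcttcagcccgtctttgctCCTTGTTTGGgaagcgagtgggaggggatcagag
Acta2 has the pair of boxes with a C or G in the core and no exact box, while Srf has a pair of exact boxes. The other genes with the inexact box are Pdlim3 and Synm, and Myl9 has 1 of each form.

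The contractile genes were highest in B6 mice on chow. Of the 35 genes, 29 had their highest value on the B6 chow array, against 34.9% of all genes compared. Their lowest value lay on the Ath29 chow array in 19 genes and on the B6 Western array in 16. The same arrays held the lowest value of 31.8% and 27.5% of all genes. No contractile gene was lowest in B6 chow or in Ath29 Western. The exceptions at the top were Des and Pgm5, highest in B6 Western, Cnn2 and Flna, highest in Ath29 chow, and Cnn1 and Tln1, highest in Ath29 Western. The summed intensity of the 35 genes was 113156 and 98485 on the B6 arrays and 96770 and 103954 on the Ath29 arrays, chow before Western diet. In whole aorta, fewer muscle cells and less RNA per muscle cell cannot be told apart. The shares of fat, heart muscle and RNA integrity in these values, described below, were not tested.

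**Figure D1:**
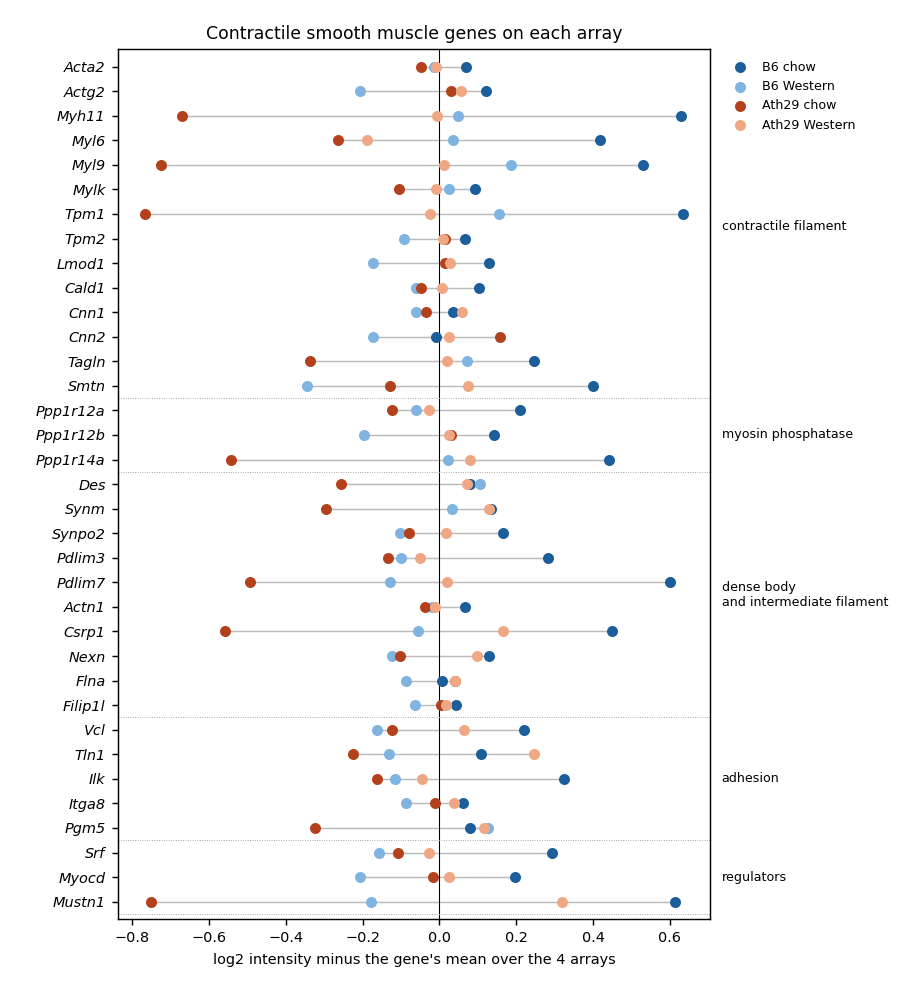
Log2 intensity of each of the 35 genes on the 4 arrays, minus the gene's own mean over the arrays (x axis), with genes grouped by role and 1 point per array. B6 chow (dark blue) is the right-most point in 29 genes, and Ath29 chow (dark red) or B6 Western (light blue) is the left-most in all 35.

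The comparison of strains asks how Ath29 aorta differs from B6 aorta on each diet. On chow, 33 of the 35 genes had the smaller value in Ath29 mice. The median log2 difference was -0.33, against -0.08 over all 11703 genes, of which 58.9% were below 0. At least 1.5-fold lower were 8 genes (Myh11, Myl6, Myl9, Tpm1, Ppp1r14a, Pdlim7, Csrp1 and Mustn1), or 22.9%, where 9.63% of all genes were. No contractile gene was 1.5-fold higher, where 7.26% of all genes were. At 2-fold, 6 of the 35 were lower, or 17.1%, against 1.94% of all genes. On Western diet the genes lay the other way by a small amount. In that comparison 27 of the 35 were higher in Ath29 mice, where 5939 of the 11703 genes were. The median was 0.10 against 0.00 over all genes. With its brightest probe set no contractile gene reached 1.5-fold in either direction. Of all genes, 7.89% were lower and 5.63% higher by that much.

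The comparison of diets asks how aorta after 2 weeks of Western diet differs from aorta on chow in each strain. In B6 mice 33 of the 35 genes were lower on Western diet, where 56.6% of all genes were. The median of the 35 was -0.27 against -0.06 over all genes. Smtn, Pdlim7 and Mustn1 were at least 1.5-fold lower, 3 of 35 or 8.57%, close to the 7.13% of all genes, and none was 1.5-fold higher, where 9.93% of all genes were. In Ath29 mice 31 of the 35 were higher on Western diet, where 6579 of the 11703 genes were. The median of the 35 was 0.09 against 0.04 over all genes. By at least 1.5-fold, 6 genes were higher (Myh11, Myl9, Tpm1, Ppp1r14a, Csrp1 and Mustn1), or 17.1% against 6.02% of all genes, and none was lower, where 4.36% of all genes were. Only Mustn1 reached 2-fold there, or 2.86% against 1.32% of all genes. Every array enters both a strain comparison and a diet comparison, so these comparisons are not independent of each other. The strain difference on Western diet exceeded that on chow in 35 of the 35 genes, by a median of 0.45 log2 units, against 58.8% of all genes and a median of 0.11. The same held in 14 of 14 non-muscle cytoskeleton genes, 13 of 15 SRF cofactors and 17 of 20 focal adhesion partners, lists described below. Their medians were 0.19, 0.16 and 0.25. It held in 11 of 12 fibroblast genes, but in 2 of 12 macrophage and 0 of 10 brown fat genes. The direction was thus not particular to the contractile genes.

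**Figure D2:**
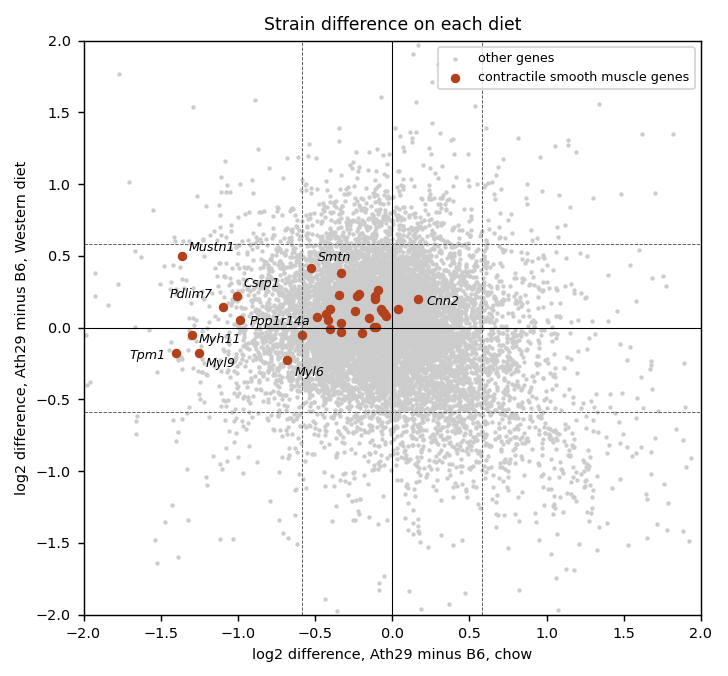
Log2 difference between Ath29 and B6 on chow (x axis) and on Western diet (y axis) for the 35 contractile genes (red) and 11604 other genes (grey), with dashed lines at 1.5-fold. The 64 other genes beyond 2 log2 units on an axis are not drawn. The contractile genes spread to the left along the chow axis, down to -1.40 for Tpm1, and stay between -0.22 and 0.50 on the Western diet axis.

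Of the 14 filament genes, 4 were at least 1.5-fold lower in Ath29 mice on chow (Myh11, Myl6, Myl9 and Tpm1), and Smtn was the one that far apart between diets in B6 mice. Myh11, the smooth muscle myosin heavy chain, read 2049, 1369, 833 and 1318. Its highest value was B6 chow and its lowest Ath29 chow, while the Western diet arrays of both strains lay close together between them. Its strain differences were -1.30 and -0.05, and its diet difference was -0.58 in B6 and 0.66 in Ath29 mice. Myl9, the regulatory light chain that the kinase phosphorylates, read 1579, 1245, 662 and 1103. On chow it was 2.39-fold lower in Ath29 than in B6 mice and differed by -0.17 on Western diet. Tpm1, a tropomyosin that lies along the thin filament, read 1191, 855, 451 and 755, with strain differences of -1.40 and -0.18. Myl6, the essential light chain, read 437, 335, 273 and 287, so that both Ath29 arrays lay below both B6 arrays. Its strain differences were -0.68 and -0.22. Smtn, the actin-binding smoothelin of differentiated smooth muscle, ranked the arrays differently, at 138.0, 82.4, 95.7 and 110.1, with B6 Western lowest. Its largest difference was between diets in B6 mice, at -0.74.

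With their brightest probe sets, the other 9 filament genes were within 1.5-fold in all 4 comparisons. Acta2, smooth muscle alpha-actin and the usual marker of these cells, read 11269, 10634, 10395 and 10674. These values span 1.08-fold, with strain differences of -0.12 and 0.01. Tagln (transgelin, or SM22), an actin-binding marker of smooth muscle, read 5545, 4910, 3697 and 4735. Its strain difference on chow, -0.58, lay just short of 1.5-fold, and on Western diet it was -0.05. Cnn1, the calponin that restrains the actin-activated myosin ATPase, read 4222, 3955, 4025 and 4296, with no difference beyond 0.12 log2 units in either direction. Mylk, the light chain kinase, had strain differences of -0.20 and -0.03, and Cald1, caldesmon, of -0.15 and 0.07. Tpm2, another tropomyosin, had -0.05 and 0.10, Lmod1, an actin filament nucleator, -0.11 and 0.20, and Actg2, the gamma-actin typical of visceral smooth muscle, -0.09 and 0.26. Cnn2, a calponin with a wider distribution, was the only filament gene higher in Ath29 mice on both diets, at 0.16 and 0.20. The 12 contractile genes that read over 4000 in B6 chow had a median chow strain difference of -0.13 (range -0.58 to -0.04). For all 392 genes that bright the median was -0.11. The 12 that read from 1000 to 4000 had a median of -0.41 against -0.12 for 1840 genes, and the 11 dimmer ones -0.42 against -0.06 for 9471 genes.

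Of the 3 myosin phosphatase genes 1, Ppp1r14a, was at least 1.5-fold lower in the Ath29 strain on chow. The other 2 lay lower with their brightest probe sets, but each also has a probe set that read higher (0.22 for both). Ppp1r14a encodes CPI-17, a smooth muscle inhibitor of the phosphatase. It read 2129, 1592, 1076 and 1655. The Western diet arrays were within 0.06 log2 units of each other, while the chow arrays were 1.98-fold apart. Ppp1r12a, the myosin-targeting subunit, had strain differences of -0.33 and 0.04, and Ppp1r12b, the related subunit of striated muscle, -0.11 and 0.22. In B6 mice both subunits were lower on Western diet than on chow, at -0.27 and -0.34.

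Of the 10 genes of dense bodies and intermediate filaments, 9 lay lower in Ath29 mice on chow, and Pdlim7 and Csrp1 did so by at least 1.5-fold. Pdlim7, a PDZ and LIM adaptor on actin, read 1109, 669, 520 and 741. Between strains on chow it was 2.14-fold lower in Ath29 mice. Between diets in B6 mice it was 1.66-fold lower on the Western diet. Csrp1, a LIM protein that binds alpha-actinin, read 318, 224, 158 and 261, which is 2.01-fold lower in Ath29 mice on chow and 1.65-fold higher on Western diet than on chow in that strain. Pdlim3, the related adaptor, had strain differences of -0.42 and 0.05. Des, desmin, had -0.34 and -0.03, and its partner Synm, synemin, -0.43 and 0.10. In both of these genes Ath29 chow was the low array and the other 3 lay within 0.10 log2 units of each other. Synpo2, the actin-bundling myopodin, had -0.24 and 0.12, and Nexn, the filament-binding nexilin, -0.23 and 0.22. With the brightest probe set of each gene, the crosslinkers Actn1 (alpha-actinin, -0.10 and 0.01) and Flna (filamin A, 0.03 and 0.13) hardly differed. The filamin A interacting gene Filip1l hardly differed either (-0.04 and 0.08). A dimmer Actn1 probe set read 211, 161, 132 and 198, with strain differences of -0.67 and 0.30.

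With its brightest probe set, none of the 5 adhesion genes reached 1.5-fold in any comparison. Of all genes, 9.63% were that much lower between strains on chow. A dimmer Itga8 probe set gave 0.60 between strains on Western diet and -0.59 between diets in B6 mice. The dimmest Tln1 probe set, at 20.1 to 39.3, gave -0.84 between strains on Western diet and -0.97 between diets in Ath29 mice. On chow all 5 lay lower in Ath29 than in B6 mice (median -0.34). Ilk, the integrin-linked pseudokinase, had strain differences of -0.49 and 0.07. Vcl, vinculin, had -0.34 and 0.22, and Tln1, the integrin activator talin, -0.33 and 0.38. Pgm5, the aciculin of muscle adherens junctions, had -0.40 and -0.01, and Itga8, an integrin subunit of smooth muscle, -0.07 and 0.13. Tln1 had the largest Western diet strain difference of the adhesion genes by their brightest probe sets. That Tln1 probe set ranged from 938 in Ath29 chow to 1301 in Ath29 Western.

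Srf and Myocd, the transcription factor and coactivator behind the apparatus, differed by less than 1.5-fold. Srf read 598, 438, 453 and 479. B6 chow stood above the other 3, which lay within 0.13 log2 units of each other. Myocd, the coactivator that gives SRF its smooth muscle targets, read 2637, 1993, 2272 and 2341, again with B6 chow highest, and had strain differences of -0.21 and 0.23. Mustn1, a small nuclear protein of the musculoskeletal system, had the largest gap between the diet differences of the strains among the 35 genes, 1.86 log2 units. It read 263, 152, 102 and 215. Its strain differences were -1.36 and 0.50, and its diet difference -0.79 in B6 and 1.07 in Ath29 mice.

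Several genes were measured by more than 1 probe set, and these did not always go together. Beside the 35 brightest, 28 probe sets of 16 genes lay above the filter. On chow, 20 of these were lower and 8 higher in Ath29 than in B6 mice (median -0.18). On Western diet 13 were lower and 14 higher. At least 1.5-fold lower on that diet were dimmer probe sets of Tpm1 (-2.27 and -0.94), Tln1 (-0.84) and Tpm2 (-0.72). Higher by as much were those of Myh11 (0.85), Ppp1r12a (0.83), Synpo2 (0.73) and Itga8 (0.60). On chow, dimmer probe sets of Acta2, Cald1, Tpm1, Mylk and Actn1 were that much lower, and none was that much higher. The dimmer probe set of Myh11 read 164, 99.0, 171 and 178. It put the strain difference at 0.06 on chow, where the brighter one gave -1.30, and at 0.85 on Western diet. For Mylk, whose brightest probe set gave -0.20 on chow, the next gave -0.68 and the dimmest 0.36. Acta2 had a dimmer probe set at 165.7, 165.5, 88.05 and 158, a chow strain difference of -0.91. For Pdlim7 the other probe sets gave -0.36 and 0.47 on chow against -1.09. The direction on chow thus rested on the probe set for Myh11, Mylk, Pdlim7, Ppp1r12a, Ppp1r12b, Synpo2 and Tln1, each with at least 1 probe set above 0, while in Csrp1 both probe sets were lower (-1.01 and -0.50) and in Tpm1 all 3 above the filter were (-1.40, -0.75 and -0.89). Averaged over a gene's probe sets, Pdlim7 was at -0.33 on chow and -0.21 between diets in B6 mice, so it no longer reached 1.5-fold.

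**Figure D3:**
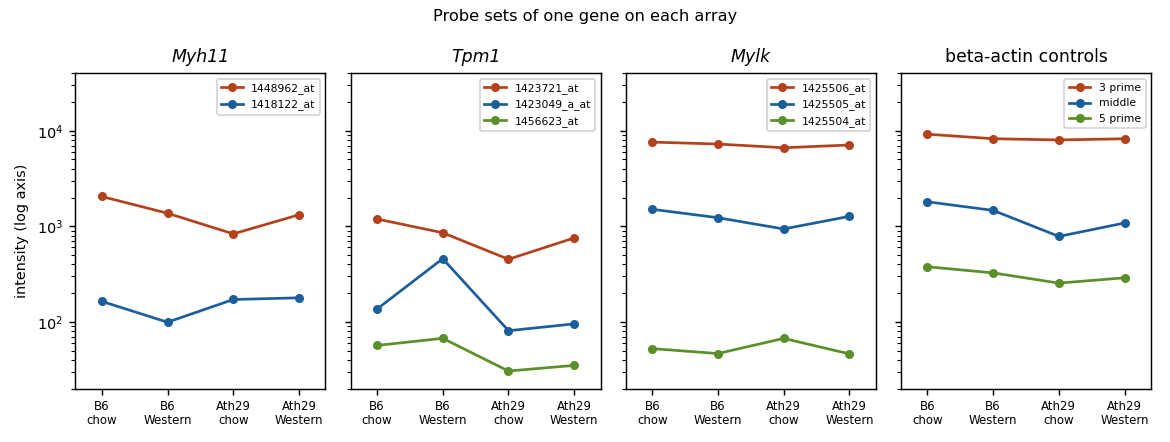
Intensity (log axis) on the 4 arrays for each probe set above the filter of Myh11, Tpm1 and Mylk, 1 line per probe set, and for the array's control probe sets along beta-actin. The brightest Myh11 and Tpm1 lines and the middle actin line are lowest in Ath29 chow, the dimmer Myh11 line is lowest in B6 Western, and both dimmer Tpm1 lines are highest in B6 Western.

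Tpm1 and Tpm2 also showed a signal in B6 Western that their brightest probe sets did not. A further Tpm1 probe set read 136, 458, 80.7 and 95.0. A dim Tpm2 probe set read 196 there against 119 to 132 on the other arrays. Both tropomyosins are also expressed in striated muscle. The 14 compared genes of a heart muscle list (of 16) summed to 14711 in B6 Western against 996 to 1472 on the other arrays. Myh6, the cardiac myosin heavy chain, read 120.5, 2639, 105 and 30.1, and Myl4, an atrial light chain, read 3160 against 221 to 263. Of 15 skeletal muscle genes 9 lay below the filter, and the 6 compared summed to 429 to 758. The brightest were Casq1, calsequestrin, at 138 to 411, and Myh1, a fast myosin heavy chain, at 180 and 370 in B6 mice and at the floor of 9.60 on both Ath29 arrays. The part of heart muscle in the contractile genes' values was not tested. A list based on general knowledge did not mark 24 of the genes as shared with striated muscle. Their median strain difference was -0.33 on chow and 0.10 on Western diet, the same as for all 35. Of the 24, 20 were highest in B6 chow. The list was not checked on striated muscle, so this split cannot show the part of heart muscle.

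Other tissues and the integrity controls also varied between the arrays. Brown fat genes, 10 of 10 compared, were 10 of 10 higher in Ath29 than in B6 mice on chow (median 1.20) and 10 of 10 lower on Western diet (-0.88), the opposite of the contractile genes. Their summed intensity was 10997, 25960, 20549 and 15476. Ucp1, the thermogenic uncoupler, read 3525, 5452, 4465 and 3756, and Plin5, a lipid droplet protein, 1463, 4701, 4367 and 3033. White fat genes (7 of 10 compared) summed to between 19627 in B6 chow and 23873 in B6 Western, with Fabp4, a fatty acid carrier, from 9034 to 9686 and Adipoq, the adiponectin gene, from 3143 to 5358. Macrophage genes (12 of 15 compared) summed to 4855 in B6 chow and 5973 in Ath29 chow against 9742 and 9555 on Western diet, with Ctss, a lysosomal protease, from 1280 to 3454 and Csf1r, the macrophage growth factor receptor, from 1705 to 2489. Fibroblast genes, 12 of 12, had a chow strain median of -0.16 and a summed intensity of 37451 to 43711, highest in B6 chow, where Col3a1, a fibrillar collagen, read 9257 against 7217 to 8447, and Col1a2, another collagen chain, 8248 against 6482 to 7400. Endothelial genes (10 of 12) had strain medians of -0.08 and 0.14 and summed to 3689 to 4060, with Vwf, von Willebrand factor, at 1656 to 2143 and Cldn5, a tight junction protein, at 475 to 575.

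**Figure D4:**
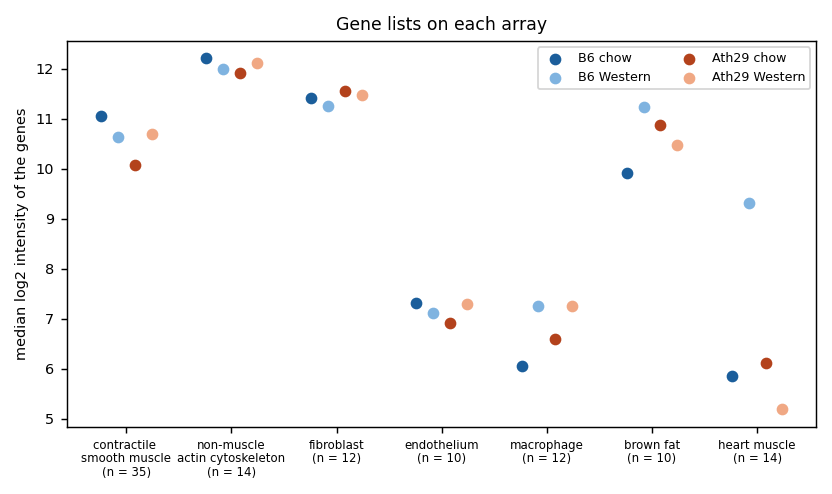
Median log2 intensity (y axis) of the genes in each list (x axis, with the number of genes compared as n) on the 4 arrays, 1 point per array, to be compared within a list. The contractile genes have medians from 10.07 (Ath29 chow) to 11.06 (B6 chow), brown fat genes are lowest in B6 chow, and heart muscle genes stand out in B6 Western.

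The beta-actin controls followed the contractile genes in part. The control probe set in the middle of the transcript read 1804, 1466, 783 and 1082. Its order of arrays and its strain difference on chow, -1.20, are like those of Myl9 and Tpm1, but its Western diet strain difference, -0.44, is larger than theirs. The 3′ control read 9201, 8252, 8011 and 8244, so the 3′ to middle ratio was 5.10, 5.63, 10.2 and 7.62. The 5′ control read 377, 325, 254 and 289, which gives 3′ to 5′ ratios of 24.4, 25.4, 31.5 and 28.5. Ath29 chow was highest in both ratios. For Gapdh the 3′ to middle ratio was 9.23, 9.54, 8.87 and 10.6 and the 3′ to 5′ ratio 31.3, 29, 22.8 and 28, with Ath29 chow lowest in both. The share of fat and of RNA integrity in the contractile genes' values was not tested.

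Most related genes of the same machinery were also lower in Ath29 mice on chow, where 58.9% of all genes were below 0, 9.63% at least 1.5-fold lower and 7.26% at least 1.5-fold higher. Of the 14 compared non-muscle cytoskeleton genes (of 15), which build the actin network of all cells, 14 were lower in Ath29 mice on chow (median -0.20) and 12 were highest in B6 chow, but 1 was at least 1.5-fold lower. Of 15 SRF cofactors and related regulators, 13 were lower on chow, with a median of -0.24, 3 of them by at least 1.5-fold and none higher by that much. The ternary complex factor Elk1 was over 2-fold lower but dim, at 20.6 in Ath29 chow, below the filter of 27.5, against 48.0 in B6 chow. Of 20 focal adhesion partners 16 were lower on chow, with a median of -0.12 and 1 past 1.5-fold. The counts of 1 of 14 and 1 of 20 are no larger than the share of all genes. On Western diet the strain medians of these 3 lists were 0.00, 0.02 and 0.06.

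Of the 35 genes, Cnn1, Tagln and Tpm1 lie on chromosome 9, the chromosome named in the titles of the Ath29 arrays. The extent of the donor segment is not given in the sources used here. Their strain differences on chow were -0.07, -0.58 and -1.40, and on the other diet 0.12, -0.05 and -0.18, so none of the 3 differed by 1.5-fold on both diets with its brightest probe set. The 2 dimmer Tpm1 probe sets above the filter were each at least 1.5-fold lower in Ath29 mice on both diets. Their strain differences were -0.75 and -2.27 for one, which read 136, 458, 80.7 and 95.0. They were -0.89 and -0.94 for the dimmest, which read 56.5, 67.1, 30.5 and 34.9. Both probe sets read highest in B6 Western, the array where the heart muscle genes summed highest. The part of heart muscle in these values was not tested.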

How the data were processed

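The authors deposited 1 table of probe set intensity values on a linear scale, from 0.57 to 13421, per the labels from biotin-labelled cRNA made from 8 ug of total RNA. Software, background correction and normalization: not given in the sources used here. Array medians were 27.9 to 28.8. GEO's platform annotation supplied gene symbols, which were updated to the GRCm38.p6 gene table. Of 45101 probe sets, 34945 had 1 symbol, 932 several (left unnamed), 9160 none, and 64 were controls. Intensities were taken to log2, arrays were shifted to a common median (factors 0.990 to 1.02), and values under the 25th percentile (9.60) were raised to it. Probe sets with a mean above the median (27.5) were kept, and each gene was read from its brightest one. Levels above are on this scale, as linear intensity. Counts use 1.5-fold and 2-fold lines. With 1 array per group there is no p-value, and the number of arrays limits the precision. For 8 of the 35 genes the probe set used may bind several transcripts. The genes and lists were chosen with earlier results of these data known. All 35 genes are named, with values on every array for those past 1.5-fold and for Acta2, Myh11, Tagln, Cnn1, Srf and Myocd. Single probe sets and the liver genes were picked after values were seen. One list of related genes is not reported here. From the others those past 2-fold are named, and from each other cell type the 2 brightest. The steps were tested on simulated data, with the same shift put on every probe set of a gene. Disagreement between probe sets was not simulated. Alternatives were other scalings, no floor, no filter, other probe set rules, other members and a 2-fold line. Python 3.11.15, numpy 2.4.6 and pandas 2.3.3 were used.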

Additional observations from a re-analysis of the deposited data

Results flagged for a closer look

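Of the 35 contractile genes, 33 were lower in Ath29 than in B6 mice on chow, against 8 on Western diet. Of all genes, 58.9% and 49.3% were. With the brightest probe set of each gene, none of the 35 reached 1.5-fold on Western diet. Dimmer probe sets of several of them did, in both directions. The median of the strain difference on Western diet minus that on chow was 0.45 log2 units over the 35 genes. Mustn1 was past 1.5-fold in opposite directions between diets, lower on Western diet in B6 mice and higher in Ath29 mice, and these differences lay 1.86 log2 units apart. With 1 array per group neither difference was tested.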

How the results depend on the processing

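The medians over the contractile genes kept their direction in the 8 alternatives run for each comparison. They ranged from -0.34 to -0.27 for strain on chow, 0.06 to 0.17 for strain on Western diet, -0.30 to -0.23 for diet in B6 mice and 0.04 to 0.11 for diet in Ath29 mice. The count past 1.5-fold for strain on chow ranged from 6 to 8, with 6 of 24 when genes listed as shared with striated muscle were left out. For strain on Western diet it went from 0 to 1 with the mean of all probe sets (Tpm1, -1.13) and to 1 when probe sets able to bind several transcripts were dropped (Tpm2, -0.72). That last setting also put Acta2 past 1.5-fold, at -0.91 for strain on chow and 0.84 for diet in Ath29 mice. At 2-fold, the count for diet was 0 in B6 and 1 in Ath29 mice. With the mean of all probe sets, Myh11 (0.36) and Tpm1 (0.39) were no longer past 1.5-fold for diet in Ath29 mice, which took that count from 6 to 4, Myh11 reached -0.65 for diet in B6 mice, and Tpm1 turned to 0.51 there. Under a common 75th percentile 10 genes rather than 4 were lower on Western diet in Ath29 mice. The 8 genes lower in Ath29 than in B6 mice on Western diet became 4 with quantile normalization and 12 with the mean of all probe sets. Without probe sets able to bind several transcripts they were 12 of 31. With quantile normalization 30 genes, and with a common 75th percentile 31, were lower in Ath29 mice on chow, where 33 were. The 29 genes highest in B6 chow became 25 with values as deposited. They became 26 with quantile normalization, a common 75th percentile or the mean of all probe sets. Genes within about 0.1 log2 units of 0 have no settled direction. No setting moved the median of all genes by over 0.1. Dim probe sets and the lack of replicates limit what single genes show.
No paired analysis was possible because each group is a single array.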
